A study of Rattus norvegicus with 25 samples.

Results

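Probe set b6965 is a group of 65 oligonucleotide probes on the HuGChip, a microarray that profiles gut bacteria through their 16S ribosomal RNA gene. Its members were all the probes whose name begins with b6965, 65 of the 4441 bacterial probes of the array, each 25 bases long and printed as 3 spots. The set was selected on measured values: one of its probes, b6965_3_2, had been seen to differ between the rats fed the 2 oils. Every difference between the oils is therefore given below as a description without a test. The sources used here pair no taxon with the set, so the set is called by its name only.

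The samples were faeces of Wistar rats whose diets over 12 weeks held 1 of 2 oils, with or without wheat aleurone, the bran layer that surrounds the starchy part of the grain. The 6 PO rats received a control oil of equal energy, the 6 A+PO rats that oil with aleurone, the 6 LO rats linseed oil, and the 7 A+LO rats linseed oil with aleurone. Age, sex and the dose of oil or aleurone are not given in the sources used here. The 16S genes in 10 ng of DNA from each sample were copied by 35 cycles of PCR. Of the product, 1 µg was labelled and 250 ng hybridised. An array held 2 rats, with the rat without aleurone in the green dye Cy3 and the rat with aleurone in the red dye Cy5. Dye and aleurone therefore cannot be told apart. One slide carried the 6 control-oil arrays and the other the 7 linseed arrays, so slide and oil cannot be told apart either. Sample A+LO 11 had no partner, since no sample is listed for the green channel of its array and that channel was left aside. The numbers of 4 A+LO rats differ between their titles and the raw files named for them, and these rats are named here by the LO rat on the same array.

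Bacteria share the 16S gene but differ from each other in its variable stretches, and the probes of such an array are short sequences complementary to those stretches. A probe name here ends in 2 numbers. The first groups probes with related sequences and the last numbers the variants of a group, which can differ by a single base. Binding depends on how well probe and target pair, and a single mismatched base near the middle of a short probe usually weakens it most. A probe can also bind a related sequence of a bacterium outside its target. Differences between groups are therefore taken below for the same probe in different samples. Where different probes are set side by side, their levels and detection are not read as amounts of a bacterium.

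The 65 probes fell into 5 name groups. Group b6965_1 has 8 probes that differ at 3 positions of 25 and share the other 22. Group b6965_2 has 9 probes with 7 variable positions, and its members differ from each other by 2 to 6 bases. Group b6965_3, which holds b6965_3_2, has 9 probes with 17 variable positions. Group b6965_4 has 12 probes with 9 variable positions, and group b6965_5 has 27 probes with 20. The share of G and C bases ran from 44% to 84% over the set, with the highest range in b6965_3, at 72% to 84%. Of the 65 probes, 37 had another member of the set at a distance of 1 base. No member was identical to a probe of another set or within 1 base of one. On either strand, 24 members shared a run of 12 to 14 bases with a probe outside the set.

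Probe b6965_3_2 has 21 G or C bases of 25, as do b6965_3_3 and b6965_3_7. Its nearest member, b6965_3_4, differs from it at 7 positions, and b6965_5_1 and b6965_5_27 also have their nearest member at that distance. The next nearest, b6965_3_7 and b6965_3_9, differ at 9 and 10 positions. Like the members outside the 24 named above, it shared no run of 12 bases with a probe of another set.

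A probe was counted as detected in a sample where more than 0.5 of its spots, after outlier spots were left out, were well above background by the scanner software's own test. Over all 4441 probes, between 576 and 1534 were detected per sample. The sample LO 4 and its array partner had the fewest, with 679 and 576 probes. The highest raw signal over the array was that of PO 1, with a median probe intensity of 513, against 58.9 to 174 in the other 24 samples. Signals are given in raw intensity units, the mean pixel intensity of a spot averaged over the spots of a probe. They are also given as the percentile rank of the probe among the 4441 probes of its channel, and on a scaled log2 scale, where 0 is the 75th percentile, within the same channel, of the 405 probes that every sample detected. The scaled values of 2 rats on 1 array were correlated, with an estimated correlation of 0.760 over all 1153 tested probes.

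Of the 65 members, 8 were detected in all 25 samples, 27 in 6 to 24 samples, 16 in 1 to 5 and 14 in none. A member was detected in 45.5% of the cases of a probe in a sample, against 22.4% over all 4441 probes. The 8 members detected everywhere were b6965_1_6, b6965_2_3, b6965_2_6, b6965_3_2, b6965_3_9, b6965_4_8, b6965_4_9 and b6965_5_7, so each name group held at least 1. Detection differed among the name groups. It reached 90.5% of cases in b6965_1 and 74.7% in b6965_2, and stood at 50.0% in b6965_4, 34.2% in b6965_3 and 24.1% in b6965_5. Of the 14 members detected in no sample, 10 belonged to b6965_5, 3 to b6965_3 and 1 to b6965_4. The share of G and C bases did not separate these classes: it ran from 68% to 84% in the 8 members detected everywhere and from 44% to 84% in the 14 detected nowhere.

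The number of members detected per sample was highest in the PO rats, with a lowest value of 22, a median of 34 and a highest value of 39. The A+PO rats had 22, 31.5 and 38, the LO rats 16, 33 and 34, and the A+LO rats 13, 27 and 30. The PO mean was 32.8 ± 6.1 (SD, n = 6), that of A+PO 31.0 ± 5.6 (SD, n = 6), that of LO 30.2 ± 7.0 (SD, n = 6) and that of A+LO 25.0 ± 5.8 (SD, n = 7). The ranges of the 4 groups overlapped. Without the array of LO 4, the LO mean was 33.0 ± 1.2 (SD, n = 5) and the A+LO mean 27.0 ± 2.6 (SD, n = 6). On 11 of the 12 arrays with 2 samples, fewer members were detected in the aleurone rat than in its partner, and on the array of PO 5 both had 22. The group means of the count over all 4441 probes had the same order, at 1113 (PO), 1104 (A+PO), 948 (LO) and 836 (A+LO). Within arrays that count was also lower in the aleurone rat, except on the arrays of PO 1 and PO 3. It was 1434 in PO 1 and 1534 in A+PO 1, and 1163 in PO 3 and 1219 in A+PO 3. The part of dye and slide in these counts was not tested.

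Probe b6965_3_2 was detected in all 25 samples. Its raw intensity in the PO rats was 669 at the lowest, 3074 at the median and 8978 at the highest, and in the LO rats 5647, 30292 and 77948. In the A+PO rats the same 3 values were 170, 718 and 2190, and in the A+LO rats 327, 1984 and 6749. The raw ranges overlapped within each pair of groups, and the medians were higher with linseed oil in both pairs.

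The percentile rank, which does not depend on the scaling of a channel, separated the oils for this probe. Among the PO rats b6965_3_2 ranked at 78.2 at the lowest, 84.7 at the median and 87.4 at the highest, and among the LO rats at 87.9, 90.4 and 92.3. Among the A+PO rats the ranks were 77.0, 84.6 and 86.8, and among the A+LO rats 87.2, 89.8 and 94.4. Every linseed rat thus ranked above every control-oil rat of the same aleurone status. No other of the 35 members detected in at least 6 samples showed such a separation upward in either pair. Over all 1153 such probes of the array it was found for 0.26% between LO and PO and for 0.0867% between A+LO and A+PO. These counts describe the contrast that chose the set, and nothing is read from them.

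On the scaled log2 scale the mean of b6965_3_2 was -6.48 ± 1.40 (SD, n = 6) in PO and -4.54 ± 1.54 (SD, n = 6) in LO, a difference of 1.94. With aleurone it was -9.70 ± 1.79 (SD, n = 6) in A+PO and -6.45 ± 1.71 (SD, n = 7) in A+LO, a difference of 3.26. Both were the largest upward differences among the 35 members, and each stood 8th from the highest among the 1153 probes. Background lies at different levels of this scale in different channels. Probe b6965_3_3, detected in no sample, lay between -12.83 and -11.75 in A+PO and between -11.51 and -6.35 in A+LO. How much of the 3.26 is a shift shared with probes at background was not tested. When the 2 dyes of each array were instead adjusted to each other by loess, the differences of b6965_3_2 were 3.25 and 3.22. Scaling by the median of all probes of a channel gave 1.74 without and 0.476 with aleurone. Leaving out 1 array at a time gave 1.498 to 2.32 without aleurone and 2.81 to 3.68 with it. The PO 5 array holds the lowest value of both control-oil groups, at -8.69 in PO 5 and -11.92 in A+PO 5.

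The other 8 probes of group b6965_3 were detected less often than b6965_3_2 or differed less between the oils after loess. Probes b6965_3_3, b6965_3_7 and b6965_3_8 were detected in no sample, b6965_3_5 in 1 and b6965_3_6 in 2 of the 25. Probe b6965_3_1 was detected in 7 samples, 4 of them under control oil and 3 under linseed oil. On the scaled log2 scale its difference between the oils was -0.41 without aleurone and 2.74 with it, the largest among the members after b6965_3_2, and after loess it was 0.11 and 0.88. It was above background in 1 of 6 A+PO and 1 of 7 A+LO rats, so the values with aleurone lie mostly near background. Probe b6965_3_4, the nearest in sequence, was detected in 10 control-oil and 7 linseed samples. Its raw intensity ran from 157 through a median of 838 to 13301 in PO and from 219 through 674 to 1979 in LO. With aleurone it ran from 79.0 through 175 to 4757 in A+PO and from 62.1 through 72.0 to 130 in A+LO. On the scaled log2 scale its differences between the oils were -0.98 without and 1.55 with aleurone. After loess adjustment they were 0.04 without and 0.30 with aleurone, so the oil groups differed by less than the SD within them, which was 0.40 to 0.82.

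Probe b6965_3_9 was detected in every sample, yet its scaled values lay far apart from rat to rat. In the PO group 5 of 6 rats lay between -0.12 and 0.12, and PO 5 lay at -7.36. In A+PO, 4 rats lay between 0.00 and 0.40, with A+PO 1 at -6.58 and A+PO 5 at -10.43. In LO, the rats LO 3, LO 4 and LO 11 lay at -6.34, -3.54 and -4.27, and the other 3 lay between -0.11 and 0.03. In A+LO the values ran from -9.94 to 0.52. Its difference between the oils, -1.14 without and -0.33 with aleurone, was smaller than the SD within any group, which was 2.72 to 4.62.

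Among the other members no common direction between the oils was seen. On the scaled log2 scale 10 of the 35 members were higher in LO than in PO, with a median difference of -0.64, beside a median of -0.94 over the 1153 probes, of which 19.6% were higher. With aleurone 27 of 35 were higher under linseed oil, with a median difference of 1.32, beside 0.68 over the 1153 probes, of which 65.8% were higher. After loess adjustment 19 of the 35 members were higher under linseed oil in each pair, with medians of 0.05 and 0.22, beside 37.3% and 40.4% of the 1153 probes, with medians of -0.28 and -0.23. The direction of the median member without aleurone thus changed with the scaling. Group b6965_4 was the one name group in which all the members detected in at least 6 samples, 6 of 6, were higher under linseed oil in both pairs after loess. On the scaled log2 scale this held for 4 of 6 without aleurone and 5 of 6 with it.

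In number of samples detected, b6965_4_6 and b6965_5_11 gained most under linseed oil. Probe b6965_4_6 was detected in 10 of 12 control-oil and 13 of 13 linseed samples. Probe b6965_5_11 was detected in 8 of 12 and 11 of 13, and b6965_4_7 in 11 of 12 and 13 of 13. In the opposite direction, b6965_2_4 was detected in 9 control-oil and 3 linseed samples, and in none of the 7 A+LO rats. Probes b6965_2_2 and b6965_5_22 were each detected in 5 control-oil samples and in no linseed sample.

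The variants of group b6965_5 show how detection moved with single bases. Substitutions are written with the base of the reference probe, its position counted from 1 at the first base of the probe as the files give it, and the base of the variant. The first family holds 9 probes, b6965_5_3 to b6965_5_11, that differ only at positions 12 and 13, the middle of the probe. The reference b6965_5_7 was detected in all 25 samples. The variant b6965_5_10, which carries C12G, was detected in 24, and b6965_5_4, which carries C12A, in 14. A change at position 13 went with fewer detections: b6965_5_6 with C13T was detected in 5 samples and b6965_5_8 with C13G in none. The probes b6965_5_3 (C12A and C13T) and b6965_5_5 (C12A and C13G) were detected in none either, and b6965_5_9 (C12G and C13T) in 2. The exception was b6965_5_11, which carries both C12G and C13G and was detected in 19 samples.

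The second family holds 12 probes, b6965_5_13 to b6965_5_24, that differ only at positions 8 and 9. Its reference b6965_5_23 was detected in 20 samples, and b6965_5_19 with G8C in 18. The variant b6965_5_15 with G8T was detected in 2, and the other 3 probes that carry G8T were detected in none. At position 9, C9A left b6965_5_21 with 6 detections, C9T left b6965_5_22 with 5, and C9G left b6965_5_24 with none. With G8C as well, b6965_5_17 (C9A) and b6965_5_18 (C9T) were each detected in 7 samples and b6965_5_20 (C9G) in 1. In both families 1 alternative base at the first position of the pair left detection nearly as high as in the reference, and no single change at the second position did.

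In group b6965_1 the same kind of change left detection high, while the signal differed widely among the variants. Its 8 probes carry all combinations of 2 bases at positions 11, 12 and 24, and they were detected in 19 to 25 samples. The reference b6965_1_6 was detected in all 25, and the variants b6965_1_2 (C24T), b6965_1_3 (T11A) and b6965_1_7 (C12T) in 23, 23 and 24. In PO the median raw intensity was 280846 for b6965_1_6, 276055 for b6965_1_2 and 145492 for b6965_1_3. It was 12903 for b6965_1_5 (T11A and C12T) and 2474 for b6965_1_1 (T11A, C12T and C24T). Both rats of 1 array stood out. In LO 4, b6965_1_6 had a scaled log2 value of 0.79, while b6965_1_2, b6965_1_3 and b6965_1_7 lay at -10.71, -11.56 and -10.68. In the other 5 LO rats b6965_1_2 lay between -0.03 and 0.38. In the partner of LO 4, both b6965_1_6 and b6965_1_2 were low, at -6.26 and -6.61, and b6965_1_2 was not detected. Background differs between these 2 channels on this scale. Probe b6965_3_3, detected in no sample, lay at -6.73 in the partner and at -11.90 in LO 4.

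Probes that differ by 1 base did not always vary together from rat to rat. The scaled values of b6965_5_7 fell on either side of a gap of 4.32: 19 samples lay between -1.89 and 0.75 and 6 samples between -10.57 and -6.21. The 6 low samples were PO 5, A+PO 5, LO 3, A+LO 1, LO 11 and A+LO 9, which are both rats of 3 arrays, so all 12 arrays with 2 samples had both rats on the same side. For b6965_5_10, which differs by C12G, PO 5 lay at 0.17, LO 11 at 0.01 and A+LO 9 at 0.01, among its high samples. The other low samples of b6965_5_7 were lower for b6965_5_10 too, at -5.36 in LO 3, -6.15 in A+LO 1 and -2.86 in A+PO 5. In turn PO 1 and A+PO 1 lay at -5.86 and -11.35 for b6965_5_10 and at 0.17 and -0.55 for b6965_5_7. Over the 25 samples the Pearson r of the scaled values of these neighbours was 0.09. That of b6965_5_7 with b6965_3_9, a probe of another name group, was 0.91. The samples share arrays, dyes and slides, so both values are descriptions.

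Members of 1 name group varied together more than members of different name groups when deviations from the diet-group means were compared. The median Pearson r of these deviations over the 25 samples was 0.75 for the 113 pairs of the 35 members within a name group. It was 0.35 for the 482 pairs across name groups. Within name groups the r ran from -0.63 to 0.98. The members whose deviations from the group means were most like those of b6965_3_2 were b6965_5_23 (r = 0.88), b6965_2_3 (r = 0.84) and b6965_4_7 (r = 0.83). None of these is in its name group. Of the tested probes of its own name group, b6965_3_4 had r = 0.81, b6965_3_1 r = 0.80 and b6965_3_9 r = 0.05. The most like probes of other sets were b6939_2_2 (r = 0.91), b6983_3_3 (r = 0.91) and b6973_3_14 (r = 0.90). The median r with b6965_3_2 was 0.74 over the other 34 members and 0.61 over the 1118 tested probes of other sets. All of these share the scaling of their channel, and the n of each is 25 samples.

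The aleurone comparisons did not enter the choice of the set and were tested. With control oil, members of b6965 were lower in the aleurone rats. By limma with Benjamini-Hochberg adjustment over 1153 probes, 28 of the 35 members passed the test at an adjusted p of 0.05 as lower and none as higher, where 29 were lower and 0 higher at an unadjusted p under 0.05. Over all tested probes 66.1% were called lower, so most of the array moved with the set. The median difference was -2.50 over the members and -1.98 over the 1153 probes, and 27 of the 35 members lay below that median probe. The 28 were 8 of 8 tested members of b6965_2, 6 of 6 of b6965_4, 3 of 4 of b6965_3, 6 of 9 of b6965_5 and 5 of 8 of b6965_1. Of the 28, 13 were detected in every sample of neither PO nor A+PO. The call depends on the scaling: 6 members were lower after loess, none passed after quantile scaling over all samples, and 3 were higher and none lower when channels were scaled by the median of the tested probes. It also depends on the array as a block, since none passed without it.

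Among called members detected in every sample of PO or of A+PO, the largest decreases under control oil were those of b6965_4_7, b6965_4_8 and b6965_4_10. Probe b6965_4_6, detected in 5 of 6 rats of each group, also fell by 3.34. Probe b6965_4_7 had raw intensities from 259 through a median of 3796 to 34579 in PO and from 94.1 through 781 to 5751 in A+PO. It was lower in the aleurone rat on 6 of 6 arrays and differed by -3.46 ± 0.61 (SE) on the log2 scale, with a limma adjusted p of 0.000293. The raw ranges overlapped, and the difference is seen within arrays. Probes detected in no sample also tended to be lower in the aleurone rat on control-oil arrays. Probe b6965_3_3 differed there by -2.77 to -0.04, b6965_3_7 by -3.28 to -0.20 and b6965_3_8 by -2.51 to 0.28. How much of the decreases is a shift shared with probes at background was not tested. The differences of b6965_4_8 and b6965_4_10 were -3.34 ± 0.55 (SE) and -3.26 ± 0.77 (SE), with the aleurone rat lower on 6 of 6 arrays for each. Probe b6965_3_2 fell by 3.22 ± 0.56 (SE), with a limma adjusted p of 0.000272, again on 6 of 6 arrays. Against the median probe its shift was -1.24. After loess it differed by -0.56, with a limma adjusted p of 0.0167. In b6965_1_2, b6965_1_6, b6965_1_7, b6965_3_9, b6965_5_7, b6965_5_10 and b6965_5_17 the limma test was not passed, with differences from -1.56 to -0.50.

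With linseed oil few members passed. By limma 4 of the 35 members were called lower with aleurone and none higher, where 8 were lower and 2 higher at an unadjusted p under 0.05. Over the 1153 probes 4.08% were called lower and 0.867% higher. The median difference was -0.69 over the members and -0.24 over all tested probes. The 4 were b6965_4_9, b6965_4_7, b6965_4_8 and b6965_3_2. Probe b6965_4_9 had raw intensities from 4977 through a median of 16831 to 41150 in LO and from 93.2 through 360 to 3649 in A+LO. The channels as a whole also differed in raw level, with median probe intensities of 122 in LO and 63.3 in A+LO on average. On the scaled log2 scale the ranges of the probe overlapped, at -7.06 to -2.99 in LO and -10.70 to -4.60 in A+LO. Probe b6965_4_9 was lower in the aleurone rat on 6 of 6 arrays and differed by -2.86 ± 0.57 (SE), with a limma adjusted p of 0.00512. For b6965_4_7 and b6965_4_8 the differences were -2.20 ± 0.61 (SE) and -2.07 ± 0.54 (SE), with limma adjusted p of 0.0433 and 0.0367. Probe b6965_3_2 differed by -1.84 ± 0.56 (SE) with a limma adjusted p of 0.0493, and was lower on 5 of 6 arrays on the scaled log2 scale. After loess it differed by -0.59, with a limma adjusted p of 0.00436.

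The count moved with single arrays. On the array of LO 4 the scaled value of b6965_3_2 was 1.51 higher in the aleurone rat. That of b6965_3_3, detected in no sample, was 5.17 higher there. The raw intensity of b6965_3_2 was 327 in that aleurone rat and 5647 in LO 4, and its loess values were 14.28 and 14.71. Without the array of LO 4, 19 members were called lower by limma. Without the array of LO 3 the count stayed at 4, and without any of the other 11 arrays it was 0 or 1. Probe b6965_4_9 remained past the test in 11 of these 13 fits, with differences from -3.11 to -2.60. It was lost without the array of LO 8 and without that of LO 11, with limma adjusted p of 0.057 and 0.0539. The other 3 were past it only without the arrays of LO 3 or LO 4, while their differences stayed between -2.75 and -1.90 for b6965_4_7, -2.32 and -1.71 for b6965_4_8, and -2.50 and -1.56 for b6965_3_2. When the channels were scaled by the median of the tested probes, 12 members were called higher and 1 lower. The direction under linseed oil therefore depends on the scaling.

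The difference between the 2 aleurone effects, the one under linseed oil minus the one under control oil, was tested as an interaction. By limma 11 of the 35 members passed as higher and none as lower, where 15 were higher and 0 lower at an unadjusted p under 0.05. Over the 1153 probes 28.2% passed as higher. The median was 1.61 over the members and 1.51 over all tested probes, so the members moved about as the array did. The 11 members were 3 of group b6965_2, 2 of b6965_3 and 6 of b6965_5. None of the 8 members of b6965_1 or the 6 of b6965_4 passed. Of the 11, b6965_2_4 and b6965_5_21 were not well above background in any A+LO rat and b6965_5_17 in no PO rat, so their values there are only bounds. Of the 11, 9 were not detected in every sample of any group, the exceptions being b6965_5_23 and b6965_3_4.

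The members named here were b6965_5_23 and b6965_3_4, both detected in every sample of at least 1 group. On the 6 control-oil arrays b6965_5_23 was lower in the aleurone rat throughout, with differences from -3.67 to -1.84 on the log2 scale. On the 6 linseed arrays the aleurone rat was lower on 3 and higher on 3. Its interaction was 3.08 ± 0.82 (SE), with a limma adjusted p of 0.0115. That of b6965_3_4 was 2.78 ± 0.92 (SE), with a limma adjusted p of 0.0242. Its raw median in A+LO was 72.0, beside a local background of 72.5 on average, so its value there lies near a bound. In b6965_3_7, detected in no sample, the aleurone rat differed by -3.28 to -0.20 on control-oil arrays and by -0.73 to 4.78 on linseed arrays. A shift of this direction was thus also seen at background. The interaction of b6965_3_4 and that of b6965_5_23 changed sign when quantile scaling was applied within each dye, to -0.21 and -0.15. No member passed as higher after loess. For b6965_3_2 the interaction was 1.38 ± 0.79 (SE), with a limma adjusted p of 0.199. Among the 13 fits that each left out 1 array, the count of members past the interaction test was 5 to 12, with the lowest count without the array of PO 4.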

How the data were processed

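The 13 deposited files hold, per the file headers, the linear spot intensity in each dye and the flags for outlier spots and for spots well above background, all from the scanner software Agilent Feature Extraction (10.5.1.1). Starting from the mean intensity, the 2 dyes were handled separately: normexp removed the background (offset 50), marked outlier spots were dropped where a probe had others, and log2 values were scaled as stated. Probes detected in at least 6 of 25 samples were tested, 1153 in all and 35 of b6965. Limma 3.58.1 in R 4.3.3 fitted 4 group means with the array as a random block and adjusted p-values by Benjamini-Hochberg over all tested probes. An adjusted p under 0.05 passed. The script was tested on simulated data. The number of arrays limits the precision.

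Named probes are b6965_3 as a whole, in each tested comparison up to 3 members per direction with the largest called differences that are detected in every sample of a group, the members whose detection differs most between the oils, and the nearest in pattern and sequence to b6965_3_2. Members and lists were chosen with earlier results of these data known. Probe sequences were compared but are not printed, since they are bacterial. PO and A+PO rats of the same number share an array, which the array block covers (correlation 0.760). LO and A+LO share the numbers 3, 4, 9 and 11. For 3 and 4 the titles and raw files disagree on the A+LO rat, and rats numbered 9 or 11 lie on different arrays, so the numbers were not taken to pair rats. The alternatives were other signals, scalings, filters, blocks and detection rules, and leaving out each array. One green channel without a listed sample was not used.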

Additional observations from a re-analysis of the deposited data

Results flagged for a closer look

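Among 56 groups of 6 or 7 samples checked for a sample far from the rest, 6 were flagged, and chance alone flags about 1 in 20. In LO 4 only 16 members were detected, against 31 to 34 in the other LO rats. In the A+LO rat on the same array 13 were detected, against 23 to 30 in the other A+LO rats. Both also had the fewest detected probes over the whole array.

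The scaled log2 value of b6965_3_9 was -7.36 in PO 5, against -0.12 to 0.12 in the other PO rats. That of b6965_4_10 was -1.33 in A+LO 1, against -7.73 to -5.14 in the other A+LO rats. Probe b6965_2_4 lay at -0.29 in PO 1, against -11.25 to -7.29 in the other PO rats, and at -1.64 in A+PO 1 on the same array, against -12.78 to -9.66 in the other A+PO rats.

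For 4 named members the aleurone effect differed between the oils by the limma interaction test. The interaction was 3.40 for b6965_3_1, 3.08 for b6965_5_23, 3.07 for b6965_2_4 and 2.78 for b6965_3_4, each higher under linseed oil. Probe b6965_2_4 was not well above background in any A+LO rat, and b6965_3_1 was detected in 1 of 6 A+PO and 1 of 7 A+LO rats, so their values there are at or near a bound. The raw median of b6965_3_4 in A+LO, 72.0, also lay near the local background, which was 72.5 on average.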

How the results depend on the processing

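Counts of called members by limma moved with the scaling. With control oil they were 16 lower when scaled by the median of all probes, 3 higher by the median of the tested probes, 0 by quantiles over all samples, 6 after loess and 0 without a block, and 26 to 32 lower in the other settings. With linseed oil they were 25, 24, 25 and 31 with the background-subtracted signal, the processed signal, the median of all probes and quantiles within each dye, 13 by the median of the tested probes (12 higher), 8 after loess, 1 without a filter or with the array as a fixed block, and 0 without a block or with only the groups compared. Those past the interaction test were 2, both lower, with the median of all probes, 43 higher without a filter, and 0 with the background-subtracted or processed signal, the median of the tested probes, loess, either quantile scaling or no block. Leaving out 1 array at a time gave 23 to 31, 0 to 19 and 5 to 12. With the replicate block, 30 members were called over PO and A+PO and 0 over LO and A+LO, where only the shared numbers 9 and 11 entered because titles and raw files disagree for 3 and 4. No tool other than limma was run.

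The oil difference of b6965_3_2 without aleurone was 3.65, 3.85 and 3.68 by the median of the tested probes, quantiles within each dye and quantiles over all samples, and with aleurone 0.476 by the median of all probes. Its interaction was -1.45, -0.146 and -0.0297 by the median of all probes, the median of the tested probes and loess, and its aleurone difference with linseed oil was 0.16 by quantiles over all samples. The interaction of b6965_3_4 was -0.030 by the median of all probes and -0.21 by quantiles within each dye, and that of b6965_5_23 was -0.15 by quantiles within each dye and -0.087 over all samples. The percentile rank, added after seeing the data, gave 6.25 and 6.91 points. With a limit of 3 background SD, the mean number of members detected was 55.0 in PO, 58.7 in LO and 15.7 in A+LO. The cause of these changes was not tested. Members near background give only a bound.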

Other observations

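The 2 rats of an array, which received different diets, shared most of their detected members. On the array of PO 3, 37 members were detected in both rats, out of 40 detected in either. On the array of PO 2 the numbers were 30 of 39, and on the array of LO 3 they were 27 of 34. On the array of LO 4 all 13 members detected in the A+LO rat were among the 16 detected in LO 4. Probe b6965_2_4, low in the other control-oil rats, was high in both rats of the array of PO 1, and b6965_5_7 was low in both rats of 3 arrays and high in both rats of the others. Rats on different arrays of the same slide were not compared in this way, and what the 2 channels of an array have in common was not tested.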
